A study of Mus musculus with 2 samples.

Results

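The genes described here are 10 transcripts used to mark pericytes in mouse lung, *Cspg4*, *Cox4i2*, *Higd1b*, *Ndufa4l2*, *Postn*, *Trpc6*, *Kcnk3*, *Rgs5*, *Spp1* and *Pdzd2*. They were found by symbol, and all 10 matched 1 of the 31053 genes in the count tables. Pericytes are mural cells that sit in the capillary basement membrane against the endothelium, and in the lung they regulate capillary tone and stability and are a source of contractile cells when pulmonary vessels remodel. Their membranes interlock with those of the endothelial cell (EC), which makes the EC the neighbour in which to look for pericyte transcripts.

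Lungs of C57/B6 mice aged 2 to 4 months, with no genetic modification named, were digested and depleted of cells bound by CD45 beads (leukocytes) and CD326 beads (epithelium), and the remainder was profiled by droplet-based 3' single-cell RNA sequencing. Normoxia animals breathed 21% oxygen, and hypoxia animals breathed 10% oxygen for 3 weeks. Each condition is represented by 1 library, and the study names 3 animals exposed to hypoxia, without saying whether they were pooled or how many gave the normoxia library. No p-value can therefore be given, and every interval below is a 95% interval that covers counting error only, in molecules that were counted by unique molecular identifiers (UMIs). The condition, the animal, the day of preparation and the library cannot be told apart.

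The normoxia library held 2223 barcodes and 7630683 UMIs, and the hypoxia library held 809 barcodes and 2685345 UMIs, with 1 barcode sequence in common. Limits of 200 to 4000 genes per barcode and of 5% mitochondrial UMIs retained 1348 normoxia cells, at a median of 3453 UMIs, and 689 hypoxia cells, at 2224. The cells were clustered without the 10 genes, 8 of which would otherwise have been among the variable genes, and classes were named from marker lists that hold none of them. So the level of a member in a class was not used to build the class. EC-like cells made up 62.1% of normoxia and 86.2% of hypoxia cells, while fibroblast-like cells numbered 97 and 5. Lymphatic EC-like, myofibroblast-like, alveolar type 1-like (AT1-like), alveolar type 2-like (AT2-like) and platelet-like cells, 1 leukocyte cluster and 2 shallow clusters that could not be named made up the rest. No smooth muscle-like class was found. Doublets were not removed for the results below. Scrublet marked 3 of 1348 and 0 of 689 cells, and leaving these out was run as an alternative. So few calls do not show that doublets were rare.

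The pericyte-like class was 1 cluster of 22 normoxia cells (1.63% of the kept cells, interval 1.03 to 2.46%, and 2.33% of their UMIs) and 1 hypoxia cell (0.145%, interval 0.00367 to 0.806%). Median depth was 5004 UMIs in normoxia, and the hypoxia cell held 3985 UMIs. Outside the 10 members the label rests on *Pdgfrb*, the platelet-derived growth factor receptor of mural cells, with 1016 UMIs in the 22 cells. *Gucy1a1* and *Gucy1b1*, the subunits of the nitric oxide receptor, followed with 567 and 377 UMIs, and *Notch3*, the Notch receptor of mural cells, with 118. *Ebf1*, *Angpt1*, *Vtn* and *Agtr1a* had 123, 68, 37 and 24 UMIs. *Kcnj8*, *Lamc3* and *Abcc9* were near the floor at 5, 4 and 3 UMIs, and *Rem1* had 0 of its 73 UMIs there. Summed, this list of 12 genes stood at 19451 counts per 1000000 UMIs (CPM) in pericyte-like cells, at 136 in EC-like cells and at 930 in fibroblast-like cells of the normoxia library. The 4 endothelial genes *Cdh5*, *Pecam1*, *Cldn5* and *Egfl7* summed to 797 CPM in pericyte-like cells and 8583 in EC-like cells, so the pericyte-like cells carried a low level of endothelial transcripts whose part in the results was not tested.

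In the GENCODE annotation of the GRCm38 build, the members lie on 8 chromosomes and share no locus. *Cspg4* (chr9:56865033-56899870) and *Trpc6* (chr9:8544142-8680741) share chromosome 9 and *Kcnk3* (chr5:30588170-30625271) and *Spp1* (chr5:104435118-104441050) share chromosome 5, in each pair far apart. *Cox4i2* is at chr2:152754173-152765037, *Higd1b* at chr11:102835849-102838040, *Ndufa4l2* at chr10:127514967-127517154, *Postn* at chr3:54361109-54391037 and *Rgs5* at chr1:169655501-169695813. These 9 genes are on the plus strand, and *Pdzd2* is on the minus strand at chr15:12359711-12739924. Exons of *Ndufa4l2*, *Trpc6* and *Kcnk3* overlap the genes *Shmt2*, *Gm32014* and *Gm9899* on the other strand. Exons of *Spp1* overlap the gene *Gm42793* on its own strand, so a part of the reads of *Spp1* could have been split or discarded in counting. Whether the exons of both genes overlap was not examined.

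Of the 6 members with a RefSeq promoter entry, 4 are shown. *Postn*, *Trpc6* and *Spp1* are those with a match to a motif marked below, and *Rgs5* has none. *Cspg4* and *Pdzd2* have no match either and are not shown. In normoxia pericyte-like cells *Postn*, *Trpc6* and *Spp1* stood at 3605, 390 and 4244 CPM, and *Rgs5* was not detected. *Cspg4* and *Pdzd2* stood at 224 and 6113 CPM there, so members both with and without a match were found in these cells. Each line gives the 250 bases before the RefSeq transcription start (GRCm38.p6), 5′ to 3′ on the strand of the gene, and capitals mark a match to TATAAA (the TATA box) or ACGTG (the core of a hypoxia response element).
Postn, chr3:54360857-54361106, plus strand: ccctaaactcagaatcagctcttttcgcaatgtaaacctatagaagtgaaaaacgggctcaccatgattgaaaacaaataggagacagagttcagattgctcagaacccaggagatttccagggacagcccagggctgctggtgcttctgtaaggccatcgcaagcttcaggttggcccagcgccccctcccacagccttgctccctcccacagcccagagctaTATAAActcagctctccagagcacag
Trpc6, chr9:8543892-8544141, plus strand: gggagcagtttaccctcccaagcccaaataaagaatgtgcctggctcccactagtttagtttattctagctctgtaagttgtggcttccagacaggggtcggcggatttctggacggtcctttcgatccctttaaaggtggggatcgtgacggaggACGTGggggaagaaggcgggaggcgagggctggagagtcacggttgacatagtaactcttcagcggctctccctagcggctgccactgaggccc
Spp1, chr5:104434861-104435110, plus strand: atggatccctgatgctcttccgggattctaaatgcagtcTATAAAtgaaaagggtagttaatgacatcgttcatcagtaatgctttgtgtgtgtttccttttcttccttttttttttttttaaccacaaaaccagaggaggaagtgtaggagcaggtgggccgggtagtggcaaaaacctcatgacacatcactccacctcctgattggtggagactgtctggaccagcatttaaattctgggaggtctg
Rgs5, chr1:169655251-169655500, plus strand: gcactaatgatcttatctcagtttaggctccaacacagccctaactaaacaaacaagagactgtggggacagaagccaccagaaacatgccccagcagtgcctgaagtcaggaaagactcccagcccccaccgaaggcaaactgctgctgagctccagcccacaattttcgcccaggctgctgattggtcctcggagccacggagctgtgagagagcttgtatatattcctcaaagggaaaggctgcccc
In *Postn* the TATAAA match begins 26 bases before the start, and in *Spp1* it begins 211 bases before. The match to ACGTG in *Trpc6* begins 94 bases before the start. Of 32536 RefSeq promoter windows of the same length, 12.3% hold TATAAA and 16.7% hold ACGTG, counting both strands. TGGGAA, the core of the site bound by RBPJ downstream of Notch receptors, occurs in 21.6% of windows and in none of the 6 members with an entry. A match is a description of the letters and says nothing of whether a factor binds there.

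The first question was how specific each member was to pericyte-like cells. In the normoxia library 9 of the 10 genes stood at least 10-fold higher in pericyte-like than in EC-like cells, against 221 of all 9866 genes tested (2.24%). The exception was *Rgs5*. The median ratio was 131 over the members and 0.866 over all genes tested. The members were chosen with earlier results of these data known, so these values describe them and do not test their specificity. All 8 testable genes of the pericyte list also passed 10-fold, but the cluster was named from this list, so nothing is read from that. *Kcnj8*, *Lamc3*, *Abcc9* and *Rem1* had too few UMIs in these classes to be tested. Together the 10 members stood at 21204 CPM (interval 20389 to 22043) in the 22 cells. These cells held 63.2% (interval 61.7 to 64.7%) of the members' UMIs in all kept normoxia cells, 2553 of 4039.

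**Figure D1:**
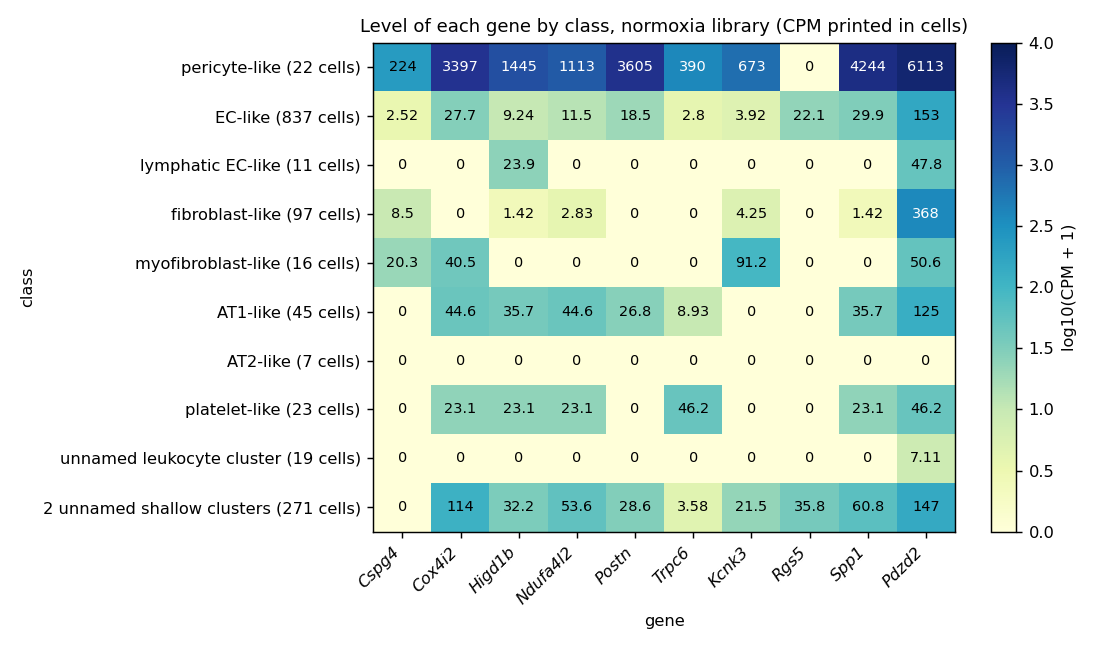
Level of each gene (columns) in each class (rows) of the normoxia library, in counts per 1000000 UMIs (CPM), with colour on a log10(CPM + 1) scale. All columns but *Rgs5* and, to a lesser degree, *Pdzd2* are dark in the pericyte-like row and pale elsewhere, and *Rgs5* stands at 22.1 CPM in EC-like cells and 0 in pericyte-like cells.

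*Cox4i2*, *Higd1b* and *Ndufa4l2* encode variants of proteins of the mitochondrial respiratory chain and its assembly. *Cox4i2*, the alternative form of subunit 4 of cytochrome c oxidase, was detected in each of the 22 normoxia pericyte-like cells with 9 to 33 UMIs a cell (median 17), or 3397 CPM, against 27.7 CPM (22.5 to 33.7) in EC-like cells. *Higd1b*, of the hypoxia-inducible domain family, was also present in 22 of 22 cells with 2 to 15 UMIs (median 7.5), at 1445 CPM against 9.24 in EC-like cells. *Ndufa4l2*, the hypoxia-inducible relative of a cytochrome c oxidase subunit, had 2 to 14 UMIs a cell (median 5) in 22 of 22 cells, at 1113 against 11.5 CPM. For these genes no normoxia pericyte-like cell was at 0.

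Each of these genes has a broadly used paralog, and the balance between the members of a pair differed by class. Of the UMIs of *Cox4i2* and *Cox4i1* combined, *Cox4i2* made up 86.7% (interval 83.2 to 89.6%) in pericyte-like cells and 5.29% (4.32 to 6.40%) in EC-like cells. *Cox4i1* itself was close in both, at 523 and 496 CPM. *Ndufa4l2* made up 95.7% (90.9 to 98.4%) of its pair with *Ndufa4* in pericyte-like cells and 2.52% (1.81 to 3.40%) in EC-like cells, and here *Ndufa4* was lower in pericyte-like cells, 49.8 against 444 CPM. *Higd1b* made up 95.1% (90.9 to 97.7%) and 9.35% (6.52 to 12.9%) of its pair with *Higd1a*, whose level was 74.7 and 89.6 CPM. So in pericyte-like cells the member was the main form of each pair, with 1 of the 3 pairs also showing a lower paralog.

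Ion channels are represented by *Kcnk3* and *Trpc6*. *Kcnk3*, the potassium leak channel TASK-1 that helps set the resting potential of vascular cells, had 0 to 8 UMIs a cell (median 3) in 19 of 22 pericyte-like cells, at 673 CPM against 3.92 in EC-like cells. *Trpc6*, a cation channel gated by diacylglycerol, had 0 to 6 UMIs (median 2) in 17 of 22 cells, at 390 against 2.80 CPM. The proteoglycan gene *Cspg4*, which encodes the NG2 antigen long used to stain pericytes, was the member detected by the fewest UMIs among the 9 found in these cells. It had 27 UMIs in 15 of 22 cells, 224 CPM (interval 148 to 326), against 2.52 CPM in EC-like cells.

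*Postn* and *Spp1* encode the matrix-associated proteins periostin and osteopontin, both known from remodelling tissue. *Postn* was present in 22 of 22 pericyte-like cells with 8 to 34 UMIs (median 19), at 3605 CPM against 18.5 in EC-like cells. *Spp1* was different in kind. It was absent from 8 of the 22 cells and reached 120, 82, 64 and 59 UMIs in the 4 highest, with a median of 10, and the top cell alone held 23.5% of its 511 UMIs. No other member found in pericyte-like cells had both zeros and values of this height.

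The 14 cells with and the 8 cells without a *Spp1* UMI were of similar depth, with medians of 4786 and 5958 UMIs. Several other members were at close levels in both sets. *Pdzd2* stood at 6114 and 6110 CPM, *Higd1b* at 1399 and 1512 CPM, and *Ndufa4l2* at 1161 and 1042 CPM. *Cox4i2* was at 3890 CPM (interval 3446 to 4375) in cells with *Spp1* and 2677 (2238 to 3177) in cells without, and *Postn* at 3988 and 3045 CPM. The per-cell ranges of *Cox4i2* overlapped, 1924 to 6939 against 1702 to 5464 CPM. The 4 endothelial genes summed to 392 CPM in the cells with *Spp1* and 1390 CPM in those without, and their part in the difference was not tested.

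**Figure D2:**
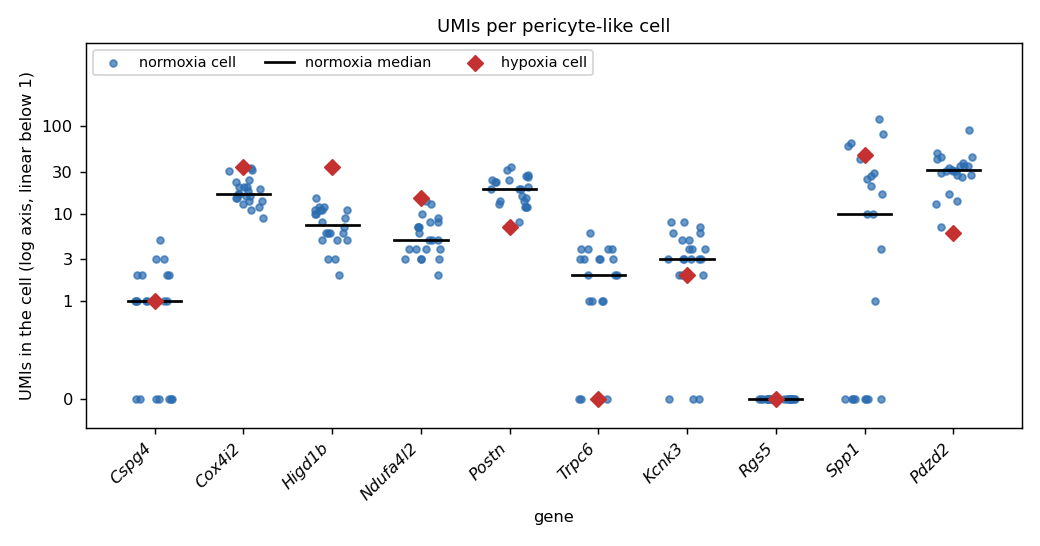
UMIs of each gene in every pericyte-like cell, with 22 normoxia cells as points, their median as a line and the 1 hypoxia cell as a diamond, on an axis that is logarithmic above 1 and linear below. *Spp1* runs from 0 to 120 UMIs and *Rgs5* is at 0 in all cells, while *Cox4i2*, *Higd1b*, *Ndufa4l2*, *Postn* and *Pdzd2* are above 0 in each.

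*Rgs5*, a regulator of G-protein signalling that is used as a pericyte marker in many organs, did not mark these cells. It had 0 UMIs in the 22 normoxia pericyte-like cells and 0 in the hypoxia cell, and 3 counts in the normoxia cells would have given 24.9 CPM. Of its 89 UMIs in kept normoxia cells, 79 were in EC-like cells (22.1 CPM, 42 cells with a UMI). Within the EC-like class, 48 of the 79 were in a single cluster led by *Slc6a2*, *Bst1* and *Ch25h*, where 21 of 53 cells had a UMI and the level was 156 CPM. In the hypoxia library the same cluster held 10 of the 13 EC-like UMIs, in 7 of 20 cells, at 114 CPM. So in normoxia *Rgs5* was found chiefly in this endothelial cluster and not in the pericyte-like one. In hypoxia this cluster again held most of the EC-like UMIs. The 1 hypoxia pericyte-like cell cannot show absence, as 3 counts in it would have given 753 CPM. With up to 10% mitochondrial UMIs, 2 of 6 hypoxia pericyte-like cells held *Rgs5*, with 4 UMIs at 234 CPM. Of these 4 UMIs, 3 were in 1 cell, which also held 35 UMIs of *Acta2* and 30 of *Tagln*, smooth muscle contractile genes.

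*Pdzd2*, which encodes a protein with several PDZ domains, was the least specific of the 9 members found in pericyte-like cells. It was present in 22 of 22 cells with 7 to 91 UMIs (median 31.5) at 6113 CPM, and these cells held 45.7% of its kept UMIs. The fibroblast-like class followed at 368 CPM with a UMI in 75.3% of its cells (median depth 7055 UMIs), most of it in the cluster led by *Fat3* (438 CPM) rather than the one led by *Scara5* (40.5 CPM). EC-like cells were next at 153 CPM, then the unnamed shallow clusters at 147 CPM and AT1-like cells at 125 CPM, and the intervals of these last 3 overlapped. The other 8 members with UMIs in pericyte-like cells had between 61.4% (*Cspg4*) and 84.9% (*Postn*) of their kept UMIs there.

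Among the other named classes and in the leukocyte cluster, members other than *Pdzd2* were sparse. In 706119 UMIs of fibroblast-like cells there was none of *Cox4i2*, *Postn* or *Trpc6*. AT2-like cells held no UMI of any member in either library, although their 7 normoxia cells had a median of 5479 UMIs. The leukocyte cluster, 19 normoxia cells with a median of 4685 UMIs, held 1 UMI of *Pdzd2* and none of the rest. The myofibroblast-like class stood out for *Kcnk3*, with 9 UMIs in 43.75% of its 16 cells (91.2 CPM), and it also held 4 UMIs of *Cox4i2* and 2 of *Cspg4*. AT1-like cells, at a median of 1311 UMIs, showed 44.6 CPM of *Cox4i2* and of *Ndufa4l2* and 35.7 CPM of *Higd1b* and of *Spp1*. The same AT1-like cells held the 4 endothelial genes at 2170 CPM. The 2 unnamed shallow clusters, 271 normoxia cells with a median of 810 UMIs, stood above EC-like cells for *Cox4i2*, at 114 CPM (78.3 to 162) against 27.7. Of the 32 *Cox4i2* UMIs there, 25 were in the cluster led by *Myh10*, *Atf5* and *Dpt*, and 19 of these in 1 cell. *Spp1* stood at 60.8 CPM in the shallow clusters, and the 4 endothelial genes at 3580 CPM.

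Shares of cells follow depth, so they were also compared after thinning each cell to 1000 UMIs. All 22 pericyte-like cells could be thinned, and 39 EC-like cells below that depth were left out, which left 798. *Cox4i2* and *Pdzd2* stayed at 100% of pericyte-like cells after thinning, against 3.76% and 12.2% of EC-like cells (7.41% and 35.8% unthinned). *Postn* was found in 95.5% and 1.38% of thinned cells, and *Higd1b* in 77.3% and 0.501%. *Spp1* was found in 54.5% of thinned pericyte-like cells, *Kcnk3* and *Ndufa4l2* in 50% each, *Trpc6* in 31.8% and *Cspg4* in 13.6%. The median over the members fell from 93.2% to 52.3% on thinning, so at the depth of a shallow droplet *Trpc6* and *Cspg4* would be missed in most pericyte-like cells. AT2-like cells, which should lack these genes, had none of them at either depth. They numbered only 7 in normoxia, where none with a UMI leaves an interval of 0 to 41.0% of cells with a UMI.

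The next question was whether members were found together in single cells. The 22 pericyte-like cells carried UMIs of 7, 8 or 9 members, in 8, 7 and 7 cells, and after thinning to 1000 UMIs the median was 6 with a range of 4 to 8. In EC-like cells of the normoxia library 462 of 837 held none, 284 held 1, and 36 (4.30%, interval 3.03 to 5.91%) held 3 or more, with a highest value of 9. In the hypoxia library 341 of 594 EC-like cells held none, 210 held 1, and 6 (1.01%, interval 0.372 to 2.19%) held 3 or more, with a highest value of 4. The hypoxia EC-like cells were shallower, with medians of 2621 and 3960 UMIs.

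**Figure D3:**
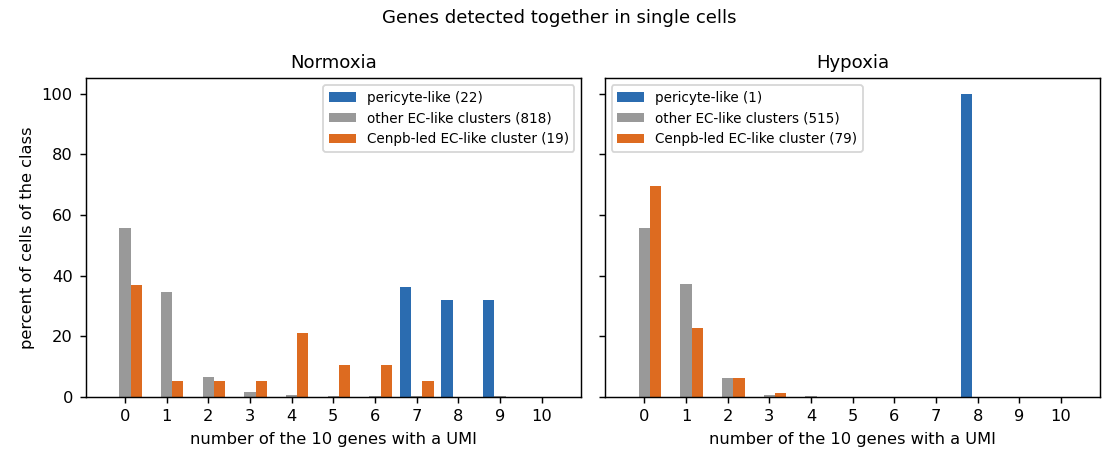
Percent of cells (vertical axis) by the number of the 10 genes with a UMI (horizontal axis), for each library, with pericyte-like cells, EC-like cells outside the *Cenpb*-led cluster and the *Cenpb*-led EC-like cluster as bars. Pericyte-like cells sit at 7 to 9 in normoxia and at 8 in hypoxia, most EC-like cells at 0 or 1, and the *Cenpb*-led cluster has 10 of its 19 normoxia cells at 3 or more but 1 of its 79 hypoxia cells.

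The EC-like cells with several members were unevenly spread over clusters. One EC-like cluster, led by *Cenpb*, *C130074G19Rik* and *Jcad*, was shallow, with medians of 1071 UMIs in its 19 normoxia cells and 1121 in its 79 hypoxia cells. In normoxia 10 of the 19 (52.6%) held 3 or more members, against 26 of 818 (3.18%) in the other EC-like clusters. For the 8 members other than *Rgs5* and *Pdzd2*, these 19 cells held 109 of 379 EC-like UMIs (28.8%) with 0.543% of the EC-like UMIs in all, a level of 5613 CPM. Their level of the pericyte list was 5304 CPM and that of the 4 endothelial genes 3141 CPM, so the name EC-like is weakly founded for them. Levels relative to pericyte-like cells and ratios of single members between the libraries are therefore also given without this cluster. Other results on EC-like cells include it unless stated. In hypoxia the cluster held 33 of 128 such UMIs, at 313 CPM, and 1 of its 79 cells had 3 or more members.

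The droplets with 3 or more of the 8 members differed in depth by cluster. In the *Cenpb*-led cluster there were 9 in normoxia, with 509 to 1835 UMIs and 0 to 8 UMIs of the 4 endothelial genes, 4 of them with none. In the other EC-like clusters there were 14, with 2734 to 12699 UMIs and 7 to 99 UMIs of the endothelial genes (median 44), together with 0 to 21 UMIs of the pericyte list (median 4.5). Together these 23 cells held 60.9% of the EC-like UMIs of the 8 members, so most of the pericyte signal in normoxia EC-like cells lay in few droplets. By cluster, 110 of the 379 UMIs (29.0%, with 6 such cells) were in the one led by *Gm38399*, *Marcksl1* and *Socs3*, and 67 (17.7%, with 6 such cells) in the one led by *Gna14*, *Sox11* and *Dnah8*. In hypoxia 21.1% of 128 UMIs were in the 6 cells with 3 or more of the 8.

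Co-detection within EC-like cells showed the same. Of the normoxia EC-like cells with a *Cox4i2* UMI, 40.3% also held another of the 8 members, against 7.48% of those without (33.9% against 6.96% outside the *Cenpb*-led cluster). For *Spp1* the shares were 73.3% and 11.2%, and outside the cluster 66.7% and 10.7%. For *Postn* they were 65.7% and 10.6%, and all 9 EC-like cells with a *Trpc6* UMI held another member. Median depths of cells with and without the gene were close, 4123 and 3940 UMIs for *Cox4i2* and 3871 and 3968 for *Spp1*. *Rgs5* went the other way, with another of the 8 in 9.52% of the cells with it (interval 2.66 to 22.6%) and 14.6% of those without, and these intervals overlapped. In hypoxia the shares for *Cox4i2* were 29.0% and 7.99%, and for *Higd1b* 27.3% and 7.66%. These cells share 1 library in each condition, and the shares are given as a description.

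Carry-over was read as the level of a member in EC-like cells relative to pericyte-like cells of the same library, since RNA from 1 source would keep its genes in 1 ratio. Over the 10 members this was 1.33% (interval 1.23 to 1.43%) in normoxia, 1.11% outside the *Cenpb*-led cluster and 0.841% in EC-like cells with fewer than 3 members. Of the 1006 normoxia EC-like UMIs in this sum, 548 were of *Pdzd2* and 79 of *Rgs5*, which had none in pericyte-like cells. For the 8 other members the value was 0.703% (interval 0.628 to 0.786%) in all EC-like cells. Among single members in all EC-like cells, the values ran from 0.512% for *Postn* and 0.582% for *Kcnk3*, through 0.639% for *Higd1b*, 0.706% for *Spp1*, 0.717% for *Trpc6* and 0.816% for *Cox4i2*, to 1.03% for *Ndufa4l2* and 1.12% for *Cspg4*. Neighbours in this order overlapped in their intervals, but *Postn* (0.389 to 0.665%) did not overlap *Ndufa4l2* (0.708 to 1.47%). Outside the *Cenpb*-led cluster the order changed, with *Postn* at 0.336%, *Trpc6* at 0.360%, *Spp1* at 0.424% and *Kcnk3* at 0.460%. *Higd1b* was then at 0.565%, *Cox4i2* at 0.671%, *Ndufa4l2* at 0.759% and *Cspg4* at 0.878%. *Postn* (0.239 to 0.460%) and *Ndufa4l2* (0.493 to 1.13%) again did not overlap. What lies behind that difference was not tested. *Pdzd2* was set apart at 2.51%, and *Rgs5* has no such ratio, as it was at 0 in pericyte-like cells.

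In EC-like cells with fewer than 3 members the order widened. *Pdzd2* stayed at 2.09% and *Cox4i2* was at 0.407%, while *Postn* fell to 0.114%, *Spp1* to 0.0554% and *Trpc6* to 0 (upper bound 0.289%). This set was chosen by the members themselves, so lower values there are built in. It removes most from the members found together, so the wider order restates the co-detection given above.

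**Figure D4:**
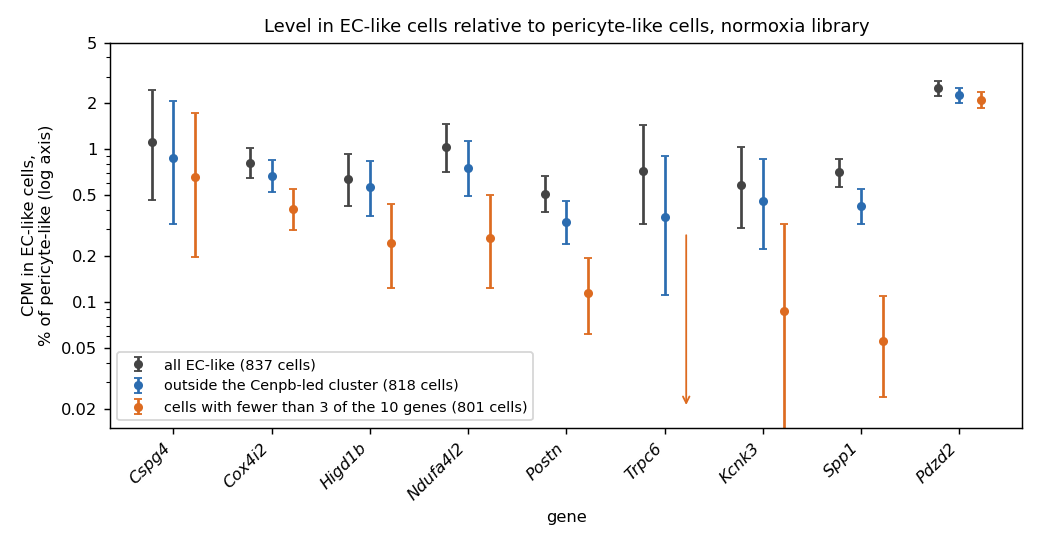
Level of each gene in EC-like cells as a percent of its level in pericyte-like cells of the normoxia library (log axis), for all EC-like cells, those outside the *Cenpb*-led cluster and those with fewer than 3 of the 10 genes. Bars are 95% counting intervals and the arrow marks a count of 0; *Pdzd2* stands above the other genes in all 3 sets, at 2.51, 2.26 and 2.09%.

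The last question was how the members compared between the libraries. In EC-like cells 7 members had enough UMIs, and relative to normoxia 1 of them was at least 2-fold higher in hypoxia (background 315 of 10455 genes, 3.01%) and 3 were at least 2-fold lower (background 598 genes, 5.72%). The median ratio was 0.624 over these 7 and 1.01 over all genes tested. *Higd1b* was the higher one, going from 9.24 to 19.2 CPM, which is 2.08-fold (interval 1.28 to 3.40), or 1.92 (1.12 to 3.30) outside the *Cenpb*-led cluster. *Spp1* went from 29.9 to 4.80 CPM (ratio 0.160), *Postn* from 18.5 to 3.36 CPM (0.182) and *Rgs5* from 22.1 to 6.24 CPM (0.282), with 0.140, 0.209 and 0.296 outside the cluster. The clusters that make up the EC-like class differed between the libraries. The one led by *Gna14*, *Sox11* and *Dnah8* had 175 normoxia and 3 hypoxia cells, and the one led by *Mal*, *Ntrk2* and *Cdk19* had 5 and 183, so these ratios compare different mixtures of EC-like cells. For *Rgs5*, the level within the *Slc6a2*-led cluster was 156 CPM (115 to 207) in normoxia and 114 CPM (54.6 to 209) in hypoxia, which overlap, while this cluster held 8.61% and 4.22% of the EC-like UMIs. Of the pericyte list, 5 of 6 testable genes were also at least 2-fold lower in hypoxia EC-like cells. The number of pericyte-like cells was 22 in normoxia and 1 in hypoxia, and whether this bears on the EC-like levels was not tested.

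The remaining members moved less. *Cox4i2* went from 27.7 to 17.3 CPM, a ratio of 0.624 (0.414 to 0.922). *Pdzd2* stayed level at 153 CPM in both, a ratio of 0.995 (0.864 to 1.14). *Ndufa4l2* had a ratio of 1.17 (0.698 to 1.94), and 11 of its 28 hypoxia UMIs were in 1 cell. Outside the *Cenpb*-led cluster the ratio was 0.577 (0.356 to 0.907) for *Cox4i2*, 1.11 (0.963 to 1.29) for *Pdzd2* and 1.32 (0.724 to 2.36) for *Ndufa4l2*. When EC-like cells with 3 or more members were set aside, the ratio of *Higd1b* was 3.98 (1.97 to 8.56) and that of *Rgs5* 0.293, while that of *Spp1* was 1.65 (0.539 to 5.03), that of *Cox4i2* 1.05 (0.642 to 1.70) and that of *Postn* 0.706 (0.222 to 1.95). That set was again chosen by the members themselves, which removes the UMIs of members found together (the 107 normoxia UMIs of *Spp1* became 8, and the 79 of *Rgs5* became 73), so nothing is read from the change.

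Pericyte-like cells allow only a weak comparison, as hypoxia has 1 cell. That cell held 34 UMIs of *Cox4i2*, 34 of *Higd1b*, 47 of *Spp1*, 15 of *Ndufa4l2*, 7 of *Postn*, 6 of *Pdzd2*, 2 of *Kcnk3*, 1 of *Cspg4* and none of *Trpc6* or *Rgs5*. Scaled to its depth, *Higd1b* in it (8532 CPM) lay above all 22 normoxia cells, which reached 3169 CPM, and *Pdzd2* (1506 CPM) lay below all of them, which started at 1890 CPM. *Postn* (1757 CPM) lay within the normoxia range of 1254 to 7072 CPM. The ratio of *Higd1b* to normoxia was 5.90 (interval 3.96 to 8.56), that of *Ndufa4l2* 3.38, that of *Spp1* 2.78, that of *Cox4i2* 2.51 and that of *Pdzd2* 0.246 (0.0901 to 0.539). These describe 1 cell. The 17 genes with at least 20 UMIs both in it and in the normoxia cells had a median ratio of 3.01 (a log2 shift of 1.59). In a cell of 3985 UMIs only genes high in that cell reach this limit. A median above 1 is therefore built in, and the members are not ranked against it.

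Raising the mitochondrial limit to 10% gave 44 normoxia and 6 hypoxia pericyte-like cells, of median depth 3414 and 921 UMIs. The members a cell ran from 1 to 9 and from 1 to 10. *Higd1b* was again higher in hypoxia, with 88 UMIs (5138 CPM) against 204 UMIs (1236 CPM) in normoxia, a ratio of 4.16 (3.20 to 5.36). Of the 88, 49 came from 1 cell over the 5% mitochondrial limit. Of the 39 that remained without it, 34 came from the 1 cell already described, so the ratio rests on few cells. *Pdzd2* was again lower, at 5402 and 993 CPM (ratio 0.184, 0.107 to 0.296). *Spp1* was at 3706 and 2802 CPM, but 47 of its 48 hypoxia UMIs came from the 1 cell already described. *Postn* was at 3046 and 2744 CPM, with 39 of 47 hypoxia UMIs in another single cell. *Rgs5* had 0 UMIs in the 44 normoxia cells and 4 in 2 of the 6 hypoxia cells, 3 of them in 1 cell. In these wider sets the 4 endothelial genes stood at 1266 and 1401 CPM.

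The number of *Higd1b* UMIs per *Cox4i2* UMI was compared next, since it can be read in any set of droplets without scaling to their depth. In the normoxia library it was 0.425 (interval 0.354 to 0.509) in pericyte-like cells, 0.358 (0.226 to 0.553) in EC-like cells outside the *Cenpb*-led cluster, 0.432 in the barcodes not kept and 0.416 over all barcodes. In the hypoxia library it was 1.00 (0.603 to 1.66) in the pericyte-like cell, 1.19 (0.685 to 2.09) in EC-like cells outside the cluster and 1.34 (1.04 to 1.73) over all barcodes. In the barcodes not kept it was 1.87, where 1 barcode held 69.0% of the *Higd1b* UMIs. For this ratio the intervals of pericyte-like and EC-like cells overlapped within each library, and between the libraries they did not overlap in any of these places. Other ratios did not all behave so. Per *Spp1* UMI, hypoxia *Higd1b* was 0.723 (0.451 to 1.15) in the pericyte-like cell. In EC-like cells outside the cluster it was 6.20 (2.39 to 20.4), which does not overlap. Per *Postn* UMI the hypoxia values were 4.86 (2.12 to 13.0) and 6.20 (2.39 to 20.4), which overlap. The places are not independent, since all barcodes include the others. Of the 146 *Higd1b* UMIs over all hypoxia barcodes, 34 were in the 1 pericyte-like cell and 49 in 1 barcode not kept. The intervals treat UMIs as independent and do not cover differences between droplets.

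The make-up of the 8 members restates the same UMIs in another form, so it adds no separate evidence. It showed the same split by library for *Higd1b* but not for *Spp1*. *Higd1b* made up 9.58% of the 1817 UMIs in normoxia pericyte-like cells and 10.7% of 270 in normoxia EC-like cells outside the *Cenpb*-led cluster, against 24.3% of 140 and 32.6% of 95 in hypoxia. *Spp1* made up 28.1% and 23.7% in the normoxia places. In hypoxia it made up 33.6% in the pericyte-like cell but 5.26% (interval 1.73 to 11.9%) in EC-like cells and 2.01% in the barcodes not kept. *Postn* made up 23.9% (21.9 to 25.9%) and 15.9% (11.8 to 20.8%) in normoxia, and 5.00% and 5.26% in hypoxia. *Cox4i2* made up 22.5% (20.6 to 24.5%) and 30.0% (24.6 to 35.9%) in normoxia. For *Postn* and *Cox4i2* the normoxia intervals of EC-like and pericyte-like cells did not overlap, narrowly so for *Cox4i2*. The intervals treat UMIs as independent, while 144 of the 270 EC-like UMIs lay in 14 cells. What lies behind the difference was not tested.

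**Figure D5:**
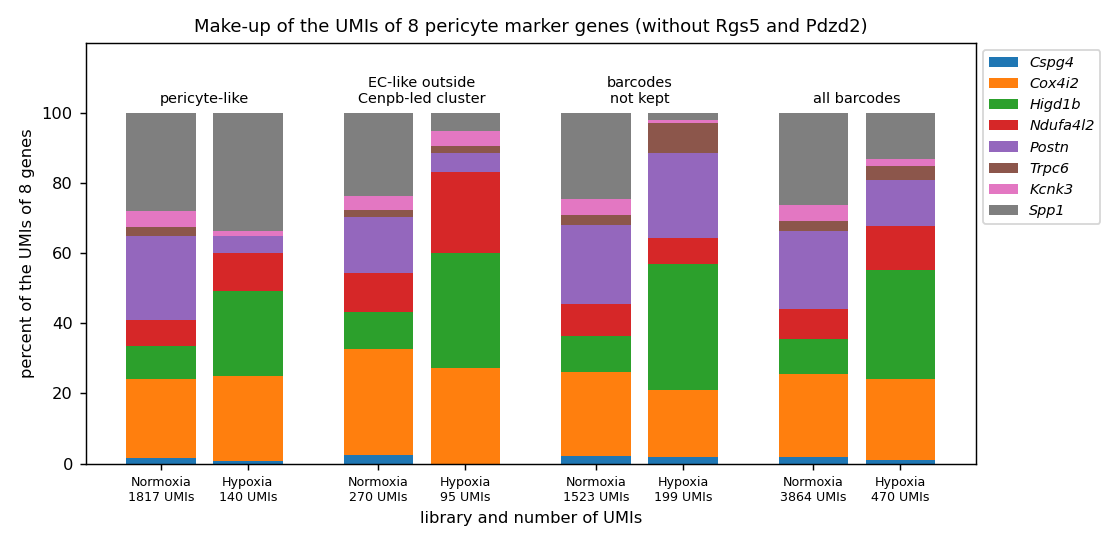
Share of each gene (colours, percent of UMIs) among the UMIs of 8 pericyte marker genes in pericyte-like cells, EC-like cells outside the *Cenpb*-led cluster, barcodes not kept and all barcodes, for each library, with the number of UMIs under each bar. *Higd1b* takes a larger share in each hypoxia bar (24.3 to 35.7% against 9.58 to 10.7%), *Postn* a smaller share in normoxia EC-like cells (15.9%) than in normoxia pericyte-like cells (23.9%), and the hypoxia bars differ from each other in *Spp1*.

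Part of the members' transcripts lay in barcodes that the filters removed, as did part of the UMIs of all genes. In normoxia 36.8% of the UMIs of the 10 members were in removed barcodes, with 4039 of 6393 kept. For all genes 5173361 of 7630683 normoxia UMIs were kept, so the 10 members together were not far from all genes. The 8 without *Rgs5* and *Pdzd2* had a higher removed share, 39.4%. By member the removed share ran from 31.0% for *Rgs5* to 41.5% for *Higd1b*. In hypoxia 30.6% of the members' UMIs were removed, with 631 of 909 kept, beside 2294966 of 2685345 for all genes. There the removed share was larger for the members than for all genes, and for the 8 it was 42.3%. One removed hypoxia barcode held 158 of the 278 removed UMIs of the 10 members. Among normoxia barcodes with 7 or more members, 22 were pericyte-like, 3 EC-like, 8 had over 4000 genes, 4 exceeded 5% mitochondrial UMIs and 3 exceeded both limits. Over all barcodes, without regard to class, the hypoxia to normoxia ratio of CPM was 1.09 (interval 0.894 to 1.32) for *Higd1b*, whereas it was 0.338 for *Cox4i2*, 0.205 for *Postn*, 0.174 for *Spp1* and 0.496 for *Pdzd2*. In such whole-library values fewer pericytes and less RNA per pericyte cannot be told apart.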

How the data were processed

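Lung cells of 1 Normoxia and 1 Hypoxia library were analysed. The authors aligned reads to mm10 and counted UMIs with Cell Ranger (6.1.2 in the file headers), and Seurat is also named in the submitters' notes. The deposited values are raw UMI counts per gene and barcode. From these counts, a barcode was retained as a cell when it had 200 to 4000 genes and no more than 5% mitochondrial UMIs. For the upper limit on genes the study's results section gives 4000 and its methods give 6000, and the latter was run as an alternative. They were normalized to 10000 UMIs, log-transformed and clustered together with scanpy 1.11.5 (2000 variable genes without the 10 members, 30 components, 15 neighbours, Leiden resolution 2), giving 26 clusters. A cluster could be named where at least 3 markers of a type were detected in at least 25% of its cells. Where several types qualified, a marker among the 10 leading genes and then the mean fold of the list decided. The leukocyte cluster and the shallow clusters met the first rule but stayed unnamed. The shallow ones fell below a depth limit set by the medians of their libraries and had no marker among their leading genes. Clusters above that limit could be named without such a marker, and all EC-like clusters were. The leukocyte cluster was led by myeloid genes, and the rule that left it unnamed was added after the data were seen. Clusters of EC-like cells are called by their leading genes.

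Levels are summed UMIs per 1000000 UMIs of a class with exact Poisson intervals. Shares have exact Clopper-Pearson intervals, and ratios of levels have exact conditional binomial intervals, all at 95%. Intervals cover counting error only. Folds over all genes used genes with at least 20 UMIs in the classes compared, at 10-fold between classes and 2-fold between libraries. The depth was 7630683 and 2685345 UMIs. There were no replicates and no significance tests. Named genes were the 10 members, the pericyte list, 3 paralogs, and the genes most like the members by Pearson r over clusters of at least 10 cells (log2(CPM + 10), at least 50 UMIs), of which 1 is not reported here. The members and lists were chosen with earlier results of these data known, and the clusters and genes singled out within EC-like cells were chosen after their values were seen. Coordinates are from GENCODE on GRCm38 and promoters from RefSeq on GRCm38.p6, where 6 of the 10 members had an entry. Alternatives changed the limits on cells, the clustering, the choice of pericyte cells, depth and scaling.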

Additional observations from a re-analysis of the deposited data

Results flagged for a closer look

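For *Cox4i2* and *Spp1* the 2 cell classes moved in opposite directions between the libraries. The hypoxia to normoxia ratio of *Cox4i2* was 2.51 in pericyte-like cells and 0.624 in EC-like cells, and that of *Spp1* was 2.78 and 0.160. The pericyte-like value rests on 1 hypoxia cell. The difference between the classes was not tested, since each condition has 1 library. With up to 10% mitochondrial UMIs, which gave 6 hypoxia cells, the pericyte-like ratio was 1.40 (interval 1.06 to 1.81) for *Cox4i2* and 0.756 (0.551 to 1.02) for *Spp1*, so *Spp1* no longer differed in direction.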

How the results depend on the processing

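No paired analysis was possible because normoxia and hypoxia have no replicate and 1 library apiece. Of 72 recomputed summary values, 28 stayed within the range of the main value in the same direction, 40 moved beyond it and 4 turned direction. Of 227 values of single members 163, 61 and 3 did. The range was the counting interval, except for the number of members a cell, where it was the quartiles over cells, 7 to 9. Values chosen after seeing the data are those for the 8 members, the endothelial transcript, the *Cenpb*-led cluster and the hypoxia to normoxia ratio in cells with fewer than 3 members. The cause of a shift was not tested except where the setting itself removes genes or cells.

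The summed normoxia level in pericyte-like cells (21204 CPM) was 17952 with up to 6000 genes, 18260 with up to 10% mitochondrial UMIs, 18215 with no such limit, 15605 with the members kept among the variable genes, 19768 with each library clustered alone, 22655 as a mean over cells, 15091 without *Pdzd2*, 15091 for the 8 members, and 3915 with pericyte cells taken one by one. The share of the members' UMIs there (63.2%) was 64.8% with no mitochondrial limit, 67.2% at resolution 3, 72.0% with members kept, 66.8% with libraries alone, 51.1% one by one and 77.6% for the 8 members. The median of 8 members a cell became 6 with no mitochondrial limit and 1 one by one. Taken one by one, 48 of the 79 cells chosen were fibroblast-like.

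The EC-like level relative to pericyte-like cells (1.33%) was 1.12% at resolution 1, 1.15% at resolution 3, 1.09% with libraries alone, 6.65% one by one, 1.92% as a mean over cells, 0.841% in cells with fewer than 3 members, 0.703% for the 8 members, 1.23% in cells with an endothelial transcript and 1.11% outside the *Cenpb*-led cluster.

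The hypoxia to normoxia ratio of the sum in pericyte-like cells (1.73) was 1.04 with up to 10% mitochondrial UMIs and 1.41 at resolution 3, and it turned to 0.999 with no mitochondrial limit and 0.574 with median scaling. That scaling used 17 genes that passed its limit by being high in the 1 hypoxia cell, so a lower value is built in. With each library clustered alone the ratio had no value, as no hypoxia cell was pericyte-like. In EC-like cells (0.783) the ratio was 0.954 with up to 6000 genes, 0.900 and 0.912 with up to 10% and no limit of mitochondrial UMIs, 0.893 and 0.911 at resolutions 1 and 3, 0.989 with libraries alone, 0.636 as a mean over cells, 0.528 without *Pdzd2*, 0.579 for the 8 members and 0.882 outside the *Cenpb*-led cluster. It turned to 1.10 with the members kept and 1.17 in cells with fewer than 3 members. For single members the EC-like ratio of *Cox4i2* turned to 1.03 with the members kept and 1.05 in cells with fewer than 3 members, and that of *Spp1* to 1.65 in the latter. The median share of pericyte-like cells with a member (93.2%) was 52.3% at 1000 UMIs and 43.2% at 500. Pericyte-like cells numbered 22 and 1, and between 22 and 79 in normoxia and 0 and 7 in hypoxia over the settings, so hypoxia depth limits every pericyte-like comparison.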

Other observations

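One hypoxia barcode left out by the mitochondrial limit (5.83% of 10151 UMIs) was the only barcode of either library with UMIs of all 10 members. It held 49 UMIs of *Higd1b*, 39 of *Postn*, 28 of *Cox4i2*, 12 of *Ndufa4l2*, 12 of *Trpc6*, 9 of *Pdzd2*, 4 of *Cspg4*, 3 of *Rgs5*, 1 of *Kcnk3* and 1 of *Spp1*. It also carried transcripts of the smooth muscle contractile genes *Acta2* (35 UMIs), *Tagln* (30) and *Myh11* (12), with 14 UMIs of *Mcam* and 11 of *Des*. The kept hypoxia pericyte-like cell, of 3985 UMIs, had 47 UMIs of *Spp1*, 34 of *Higd1b*, 34 of *Cox4i2*, 7 of *Postn* and none of *Trpc6*. Between these 2 barcodes the largest gap was in *Spp1*.

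Across the 25 clusters of at least 10 cells and 9814 candidate genes, genes whose level followed the sum of the members closely included *Sept7* (Pearson r 0.84), *Gnb4* (0.81), *Fermt2*, *Agap1*, *Ltbp2*, *Vsnl1*, *Lipg*, *Epb41l2* and *Filip1* (0.77). The clusters share 2 libraries and 1 pericyte-like cluster weighs on every r. Without it, r was 0.73 for *Sept7* and 0.80 for *Fermt2*, but 0.56 for each of *Ltbp2*, *Vsnl1* and *Lipg*. By member, *Trpc6* was most like *Fam162b* (0.96), *Kcnk3* like *Arhgap42* (0.95), *Postn* like *Notch3* (0.93), *Cspg4* like *Lipg* (0.92), *Spp1* like *Col8a1* (0.90), *Ndufa4l2* and *Higd1b* like *9230104L09Rik* (0.89 and 0.88), *Cox4i2* like *Lipg* (0.88) and *Pdzd2* like *Sept7* (0.85). *Rgs5* was most like *Slc6a2* (0.80) and *Bst1* (0.71), the genes that lead its endothelial cluster. Without the pericyte-like cluster these 2 values were 0.81 and 0.70. For the other members the values then ran from 0.62 (*Higd1b* with *9230104L09Rik*) to 0.90 (*Kcnk3* with *Arhgap42*).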
